A study of Homo sapiens with 6 samples.

Results

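The resting transcriptome of cells labelled SK-MES-1 was described from the control libraries of an RNA sequencing experiment on transient knockdown of KRT6A. It was taken as all genes at 1 FPKM or more in both control libraries. FPKM divides the fragments of a gene by its length and by the depth of the library, so that levels can be set side by side between genes. In all, 11789 of the 58735 genes in the deposited table (20.1%) met this rule.

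SK-MES-1 is an established human line; the labels describe it as a lung squamous cell carcinoma cell line. The study holds 6 libraries in 3 groups of 2. The group used here is labelled NC, the control group, and no treatment, dose, time or genetic change is given for it. The labels do not spell out NC and do not say that the 2 libraries came from separate cultures, so the spread between them may be technical. Total RNA (0.2 µg) was extracted with Trizol for each library, and how the RNA was selected before sequencing is not described. NC libraries 1 and 2 held 16607606 and 17401392 reads, as recovered from the values. Each value pair below gives NC library 1 and then NC library 2, and no group was compared with another.

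Squamous epithelia are layered sheets in which basal cells, marked by KRT5, KRT14 and the transcription factor p63, sit on laminin-332 through hemidesmosomes. Cells leaving the basal layer exchange these keratins for others and build desmosomes and, at the surface, a cornified envelope. Simple epithelia use KRT8 and KRT18 and E-cadherin (CDH1), while mesenchymal cells carry vimentin and N-cadherin (CDH2). Cancer lines can hold mixtures of these programmes in culture.

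The NC libraries held only part of the genes listed as squamous. Of 90 squamous genes, 25 were at 1 FPKM or more in both libraries (27.8%, against 53.1% of all protein-coding genes), and 36 had 0 reads. Genes of the attachment to the basement membrane were mostly abundant, though COL17A1 was below 1 FPKM, and TP63 was present. The basal keratins KRT5 and KRT14, the listed desmosomal cadherins of stratified epithelia and most cornified envelope genes were near or at 0. TP63 and laminin-332 were thus measured without the basal keratins KRT5 and KRT14. Whether the cells match their label was not tested. The following paragraphs describe first the make-up of the transcriptome, then lineage genes, receptors and secreted factors. Each count of listed genes below is to be read beside the 53.1% of all protein-coding genes.

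Protein-coding genes made up 89.8% of the described genes and 91.5% of the summed FPKM of the table. There were 10589 of them, and 4539 protein-coding genes (22.8%) had 0 reads in both libraries. The median level of the 11789 genes was 6.86 FPKM, with quartiles of 3.13 and 15.2 FPKM. Most genes, 7378, lay between 1 and 10 FPKM on average, 4132 between 10 and 100, 261 between 100 and 1000, and 18 above 1000. Those 18 genes took 30.7% of the summed FPKM. Of the genes outside the rule, 33811 (57.6% of the table) had 0 reads in both libraries and 13135 had reads, 1173 of these reaching 1 FPKM in 1 library only. Closest inside the threshold were CYP4V2 at 1.00 and 1.05 FPKM and SPINK5 at 1.28 and 1.00, and closest outside were SCAPER at 0.9999 and 1.11 and HOXB8 at 1.49 and 0.9994. SPINK5 encodes a protease inhibitor of cornified epithelia.

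**Figure D1:**
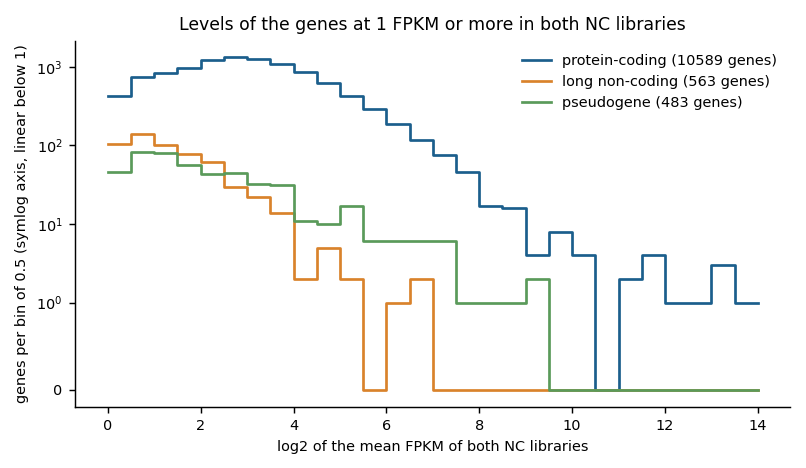
Number of genes (y axis, logarithmic above 1 gene) in each interval of the mean level of both NC libraries (x axis, log2 FPKM), for protein-coding genes, long non-coding RNA genes and pseudogenes at 1 FPKM or more in both. The 10589 protein-coding genes are most frequent at a log2 level between 2 and 3, whereas the 563 long non-coding RNA genes and the 483 pseudogenes are most frequent below 2.

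The libraries resembled each other gene by gene. The median absolute log2 ratio between them was 0.10 over the 11789 genes, 0.07 over genes at 10 FPKM or more and 0.04 over genes at 100 FPKM or more, and 97 genes differed by more than 2-fold. The difference was still larger than counting error alone: the squared difference in reads, divided by the variance that counting gives, averaged 3.70 where counting error alone gives 1. Small differences between the paired values below are therefore not read as differences between genes. Among genes at 10 FPKM or more on average, XAGE1B differed most, at 42.1 and 9.66 FPKM from 995 and 240 reads. XAGE1B is a cancer-testis gene with a near-identical neighbour, XAGE1A (2.29 and 3.14 FPKM), and how reads that fit both were assigned is not given. XAGE1A differed by far fewer reads, 41 and 59, than XAGE1B. The mitochondrial tRNA gene MT-TQ was next, at 5.82 and 19.8 FPKM, from 7 and 25 reads.

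Mitochondrially encoded genes led the list of abundant genes. They took 28.5% and 27.6% of the summed FPKM, though only 8.15% and 7.82% of the reads, since these genes are short. MT-CO1, a subunit of cytochrome c oxidase, was highest at 13019.9 and 12191 FPKM. MT-CO2 followed at 11463 and 11507 FPKM, MT-CO3 at 10309.9 and 9869 and MT-ND4, a subunit of complex I, at 8380.3 and 8064. The 25 most abundant protein-coding genes held 12 mitochondrial genes and 13 nuclear ones.

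FTL, the light chain of the iron store ferritin, was the most abundant nuclear gene, at 5501 and 5439.5 FPKM (chr19:48965301-48966878, hg38). EEF1A1, the elongation factor that brings tRNA to the ribosome, stood at 3228 and 3179.98 FPKM. The cytoskeletal genes TMSB10 (actin-binding thymosin beta-10; 1195 and 1256 FPKM), ACTB (1090.5 and 1107), ACTG1 (921 and 944) and FLNA (filamin A, which crosslinks actin; 845 and 886) came with them. GAPDH and ENO1, enzymes of glycolysis, were at 931 and 956 and at 601 and 609 FPKM. Others were S100A6, a calcium-binding protein (840.5 and 847 FPKM), YBX1, a nucleic acid-binding protein (732 and 746), FTH1, the ferritin heavy chain (719 and 743), and RPS12, a ribosomal protein (726 and 724). The top of the list thus joined both ferritin chains with genes that are abundant in most cells.

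Among nuclear protein-coding genes alone, the 10 most abundant took 8.37% of their summed FPKM in each library and the 100 most abundant 21.9% and 22.0%. Sorted by function after their values were seen, these 100 genes held 27 cytosolic ribosomal proteins, 12 cytoskeletal genes, 9 genes of redox, iron and metal handling, 9 chaperones, 7 annexins, S100 proteins and galectins, 5 glycolytic enzymes and 3 translation factors. By share of the nuclear protein-coding FPKM, the redox, iron and metal genes held 4.60%, the ribosomal proteins 4.24% and the cytoskeletal genes 3.25%. Most of the first share was FTL, and without it these genes held 1.78%, less than either other group. UCHL1, a deubiquitinase best known from neurons, was chosen after its values were seen and ranked 17th of the nuclear genes at 484 and 502 FPKM.

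Promoters of 5 genes are shown to set the letters of abundant genes beside those of a squamous gene that is nearly silent here. FTL stands for the abundant nuclear genes, CXCL5, CXCL8 and EREG for the secreted factors described below, and KRT5 for the absent basal keratins. Each runs 5′ to 3′ on the gene's strand from 250 bases before to 50 bases after the first RefSeq start of the gene (GRCh38.p14). FTL is on the plus strand at chr19:48965059-48965358, CXCL5 on the minus strand at chr4:73998628-73998927, CXCL8 on the plus strand at chr4:73740319-73740618, EREG on the plus strand at chr4:74364895-74365194 and KRT5 on the minus strand at chr12:52520345-52520644. Capitals mark matches on either strand, overlaps allowed, to the TATA box TATAAA, the AP-1 site TGANTCA, the CCAAT box CCAAT and the GC box GGGCGG.
FTL: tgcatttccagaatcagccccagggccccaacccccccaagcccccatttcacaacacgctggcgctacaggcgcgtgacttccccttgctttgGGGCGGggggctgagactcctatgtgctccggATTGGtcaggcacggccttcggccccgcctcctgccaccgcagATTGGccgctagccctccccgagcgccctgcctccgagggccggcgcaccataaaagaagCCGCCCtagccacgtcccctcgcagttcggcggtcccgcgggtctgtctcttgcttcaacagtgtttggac
CXCL5: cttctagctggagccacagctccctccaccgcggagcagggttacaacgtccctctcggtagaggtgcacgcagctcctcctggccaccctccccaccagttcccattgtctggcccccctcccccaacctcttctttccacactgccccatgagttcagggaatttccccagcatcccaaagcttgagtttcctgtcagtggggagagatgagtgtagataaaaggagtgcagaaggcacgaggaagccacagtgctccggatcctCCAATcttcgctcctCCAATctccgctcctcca
CXCL8: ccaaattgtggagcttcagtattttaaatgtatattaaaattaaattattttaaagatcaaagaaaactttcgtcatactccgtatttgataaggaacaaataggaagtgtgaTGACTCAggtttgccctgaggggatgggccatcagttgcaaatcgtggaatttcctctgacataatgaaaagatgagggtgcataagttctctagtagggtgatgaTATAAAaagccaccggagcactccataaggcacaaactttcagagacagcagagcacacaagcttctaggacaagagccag
EREG: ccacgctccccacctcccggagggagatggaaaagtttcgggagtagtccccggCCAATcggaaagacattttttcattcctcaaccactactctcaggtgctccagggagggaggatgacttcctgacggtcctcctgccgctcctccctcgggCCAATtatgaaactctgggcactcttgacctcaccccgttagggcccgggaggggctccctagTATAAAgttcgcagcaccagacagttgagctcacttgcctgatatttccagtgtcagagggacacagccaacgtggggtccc
KRT5: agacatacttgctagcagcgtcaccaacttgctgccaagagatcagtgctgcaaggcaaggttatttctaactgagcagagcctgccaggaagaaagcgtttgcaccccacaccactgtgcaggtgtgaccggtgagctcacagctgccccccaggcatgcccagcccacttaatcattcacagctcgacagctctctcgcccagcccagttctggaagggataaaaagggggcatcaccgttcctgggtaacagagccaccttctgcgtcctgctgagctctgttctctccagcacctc

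FTL had 2 GC boxes and 2 CCAAT boxes and a G+C content of 66.3%. CXCL8, at 102 and 103 FPKM, had a TATA box that begins at −31 and an AP-1 site that begins at −137 relative to the start, in a window of 39.3% G+C. EREG, at 97.5 and 94.8 FPKM, had a TATA box at −32 and 2 CCAAT boxes before the start. CXCL5, at 232 and 227 FPKM, had 2 matches to the CCAAT letters, both after the start. KRT5, at 0 and 0.0133 FPKM, had no match to these letters. Across 27195 promoters of the reference table, 12.0% held the TATA letters, 7.73% the AP-1 letters, 35.7% the CCAAT letters and 44.7% the GC box. A match describes the letters and does not show that a factor binds.

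Of 19923 nuclear protein-coding gene symbols, 14866 had a promoter in that table, and their letters differed by level. Median G+C was 52.7% for the 2940 promoters of genes with 0 reads, 61.3% for genes with reads below the threshold, and between 65.2% and 66.0% in each class at 1 FPKM or more. GC boxes were in 29.5% of the promoters with 0 reads and in 72.2% of those of the described genes. The TATA letters ran the other way and then turned: 20.9% with 0 reads, 10.1% with reads below the threshold, 4.78% from 1 to 10 FPKM, 5.21% from 10 to 100 and 12.2% in the 188 promoters of genes at 100 FPKM or more. These letters share the base composition of their windows, so they are not independent of the G+C content. CCAAT boxes varied less, from 35.1% to 44.7%.

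**Figure D2:**
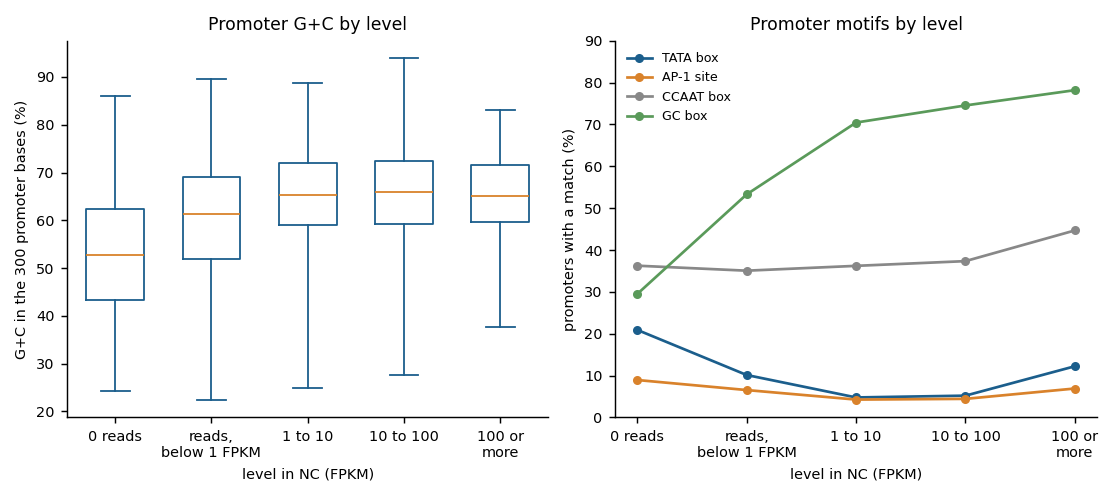
Left: G+C content (%) of the 300 promoter bases for nuclear protein-coding genes by level in NC; boxes span the quartiles, the line is the median and whiskers reach the lowest and highest values. Right: percent of the same promoters with a match to each motif, showing the GC box rising from 29.5% to 78.2% and the TATA box lowest, at 4.78%, in genes at 1 to 10 FPKM.

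Among the 13 transcription factors of squamous epithelium, 6 were at 1 FPKM or more in both libraries. TP63, the master factor of stratified epithelia (chr3:189631416-189897279, hg38), stood at 5.97 and 6.25 FPKM from 744 and 818 reads. KLF4, which drives the outer layers of the skin, was higher at 24.2 and 20.3 FPKM, and PITX1, a homeobox factor, was at 9.22 and 8.92. KLF5 (2.51 and 2.44 FPKM), TFAP2C (1.59 and 2.41) and TFAP2A (1.22 and 1.47) were low. SOX2, often amplified together with TP63 in squamous lung cancer, was at 0.0476 and 0.430 FPKM, from 2 and 19 reads. PAX9 was at 0.664 and 0.689 FPKM, GRHL3 and ZNF750 had a few reads in library 1 and 0 in library 2, and BNC1 and OVOL1 had 0 reads in both. TP63 was therefore present without several factors that act beside it in keratinocytes.

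The keratins of stratified epithelia were nearly absent. Of 8 basal and activated keratins only KRT15 passed, at 1.70 and 1.998 FPKM. KRT5 (chr12:52514575-52520687, hg38) had 0 and 1 reads, KRT14 had 0 reads, and KRT16 and KRT17 stayed at or below 0.092 FPKM. KRT6A, the gene the study targets, and KRT6C had 0 reads in both libraries, and KRT6B had 0 and 1. The targeted gene therefore gave no check of the label, and whether the cells were SK-MES-1 was not tested. For KRT6A, 3 reads are taken as the upper limit that a count of 0 allows, which is 0.0613 and 0.0583 FPKM, and this covers counting error only. How reads that fit more than 1 KRT6 gene were assigned is not given, so the counts of these genes are uncertain. Of the 10 suprabasal keratins KRT10 alone passed, at 17.9 and 17.8 FPKM, and its skin partner KRT1 had 0 reads, as had KRT2, KRT4, KRT9, KRT76 and KRT78. KRT3, KRT12 and KRT13 stayed at or below 0.0491 FPKM. Since RNA came from whole cultures, fewer cells of a type and less RNA per cell cannot be told apart.

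Cell junctions split between the basement membrane side and the cell to cell side. Of 9 hemidesmosome and laminin-332 genes, 8 passed. Of laminin-332, the chain LAMB3 stood at 206 and 215 FPKM and LAMA3 at 8.96 and 8.72. The receptor of laminin-332, integrin alpha-6 beta-4, was at 65.1 and 66.8 FPKM for ITGA6 and 23.8 and 25.3 for ITGB4, with the tetraspanin CD151 at 72.1 and 76.2. The plakins that anchor keratin filaments were at 63.2 and 65.0 FPKM (PLEC) and 15.6 and 15.7 (DST), and COL17A1, the transmembrane collagen of the hemidesmosome, at 0.0677 and 0.0967. Of 8 genes of the stratified desmosome, PERP (51.8 and 49.3 FPKM), JUP (24.5 and 24.9) and PKP1 (19.5 and 18.4) passed. Desmoplakin, DSP, lay at the threshold at 0.996 and 1.28 FPKM. The desmosomal cadherins DSG1, DSG3 and DSC1 had 0 reads and DSC3 was at 0.322 and 0.436 FPKM. The plaque proteins JUP and PKP1 were thus measured with little or no RNA of these cadherins of stratified tissue. Other desmosomal cadherins were not in the list.

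Of the 22 genes of the cornified envelope, 3 passed: PPL at 12.3 and 13.0 FPKM, EVPL at 2.93 and 3.02 and CSTA at 1.83 and 1.49. PPL and EVPL are plakins that line the envelope and CSTA is a protease inhibitor of its matrix. Below the threshold were FLG (0.723 and 0.791 FPKM), TGM1 (0.304 and 0.274), CNFN (0.198 and 0.378), SPRR2A, SPRR2D, FLG2 and SCEL. The remaining 12 had 0 reads in both libraries: IVL, LOR, SPRR1A, SPRR1B, SPRR2E, SPRR3, LCE3D, LCE3E, CRNN, RPTN, CDSN and TGM3. Among 20 other genes used to recognise squamous tumours, S100A2 (28.9 and 30.6 FPKM), GJB2, a connexin (16.1 and 16.2), and SERPINB5, maspin (11.2 and 9.64), passed, and FGFBP1 lay just below at 0.969 and 0.964. RHCG, TRIM29, AQP3, SERPINB3, SERPINB4 and NTRK2 stayed at or below 0.328 FPKM. CLCA2, CALML3, CALML5, SERPINB13, S100A7, S100A8, S100A9, GJB6, GPC3 and LY6D had 0 reads.

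Keratins of simple epithelia were abundant. KRT7 was at 176 and 185 FPKM, KRT19 at 85.6 and 96.4, KRT18 at 45.2 and 49.5 and KRT8 at 44.5 and 44.4. The tight junction gene CLDN1 followed at 28.7 and 29.1 FPKM. In all, 12 of 26 genes of simple epithelia passed (46.2%, against 53.1% of protein-coding genes). EPCAM was low at 3.56 and 3.98 FPKM. E-cadherin, CDH1, was at 0.0387 and 0.0461 FPKM. The splicing factor ESRP1 (0 and 0.117 FPKM) and the factor GRHL2 (0 and 0.0188), both keepers of the epithelial state, and the P-cadherin gene CDH3 were also below 0.15 FPKM, and RAB25 and OVOL2 had 0 reads.

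Of 28 mesenchymal genes 17 passed (60.7%, near the 53.1% of protein-coding genes). Of the 8 transcription factors 7 passed, led by SNAI2 (13.5 and 12.9 FPKM), TWIST2 (10.5 and 9.88), FOXC2 (7.08 and 7.91), ZEB1 (6.70 and 6.27) and TWIST1 (3.24 and 3.42), all repressors or inducers in epithelial to mesenchymal transition, while ZEB2 had 0 reads. COL6A1 was at 236 and 252 FPKM, vimentin (VIM) at 197 and 201, fibronectin (FN1) at 101 and 101, S100A4 at 68.6 and 69.2 and N-cadherin (CDH2) at 42.3 and 41.8. CDH2 rested on 3499 and 3636 reads and CDH1 on 4 and 5, so reads of the mesenchymal cadherin outnumbered those of the epithelial one. In all, 10 of 20 structure and matrix genes passed. COL1A1 was at 15.2 and 15.5 FPKM, whereas COL1A2, COL3A1 and DCN, which fibroblasts express, had 0 reads and SPARC was at 0.124 and 0.0943 FPKM.

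**Figure D3:**
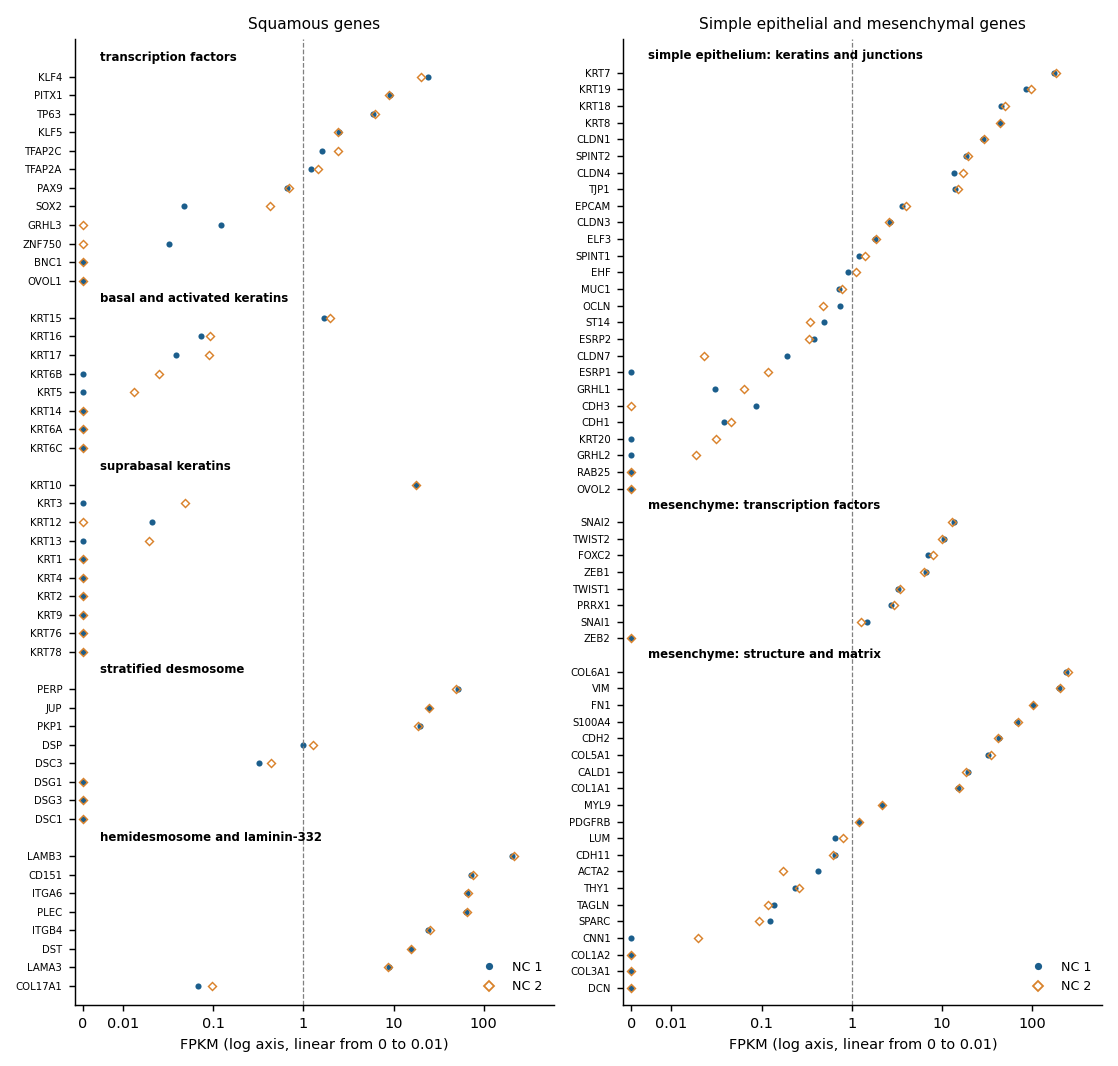
FPKM of each gene (x axis, logarithmic above 0.01) in NC library 1 (filled circles) and NC library 2 (open diamonds), for 46 squamous genes on the left and 54 simple epithelial and mesenchymal genes on the right; the dashed line is 1 FPKM. Hemidesmosome genes lie right of the line except COL17A1, most stratified keratins lie at or near 0, and KRT7, COL6A1 and VIM lie near 200 FPKM.

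Of 38 genes of the lung lineages, 6 passed. SOX9, a factor of the distal lung tip, was at 41.4 and 45.0 FPKM, ETV5 at 19.3 and 18.7, GATA6 at 13.3 and 15.01, FOXA2 at 6.71 and 6.69 and FOXA1 at 1.999 and 2.23. NKX2-1, the factor that defines alveolar and much of airway epithelium, had 0 reads. MUC5AC, the gel-forming mucin of goblet cells, was the sole product gene to pass at 18.8 and 18.9 FPKM, while MUC5B was at 0.0772 and 0.0459, and SFTPC and SCGB1A1 had 0 reads. None of 11 neuroendocrine and tuft cell genes passed, and NEUROD1, INSM1 and POU2F3 had 0 reads. Markers of leukocytes, endothelium, red cells, liver and neurons numbered 27, of which MAP2 alone passed (11.1 and 11.1 FPKM). CD14 came closest among leukocyte genes at 0.698 and 1.42, the 10 leukocyte genes summed to 1.35 and 1.92 FPKM and the 8 endothelial genes to 0.635 and 0.697. CD3E, CDH5 and HBB had 0 reads.

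Of 39 HOX genes, which pattern the body axis, 11 passed (28.2%, against 53.1% of protein-coding genes), and 7 of these lay in the B cluster. The count depends on the threshold: 13 HOX genes passed at 0.5 FPKM and 2 at 5 FPKM. After rescaling to TPM, which gives each library the same sum, 18 passed at 1 TPM, a cutoff here lower than 0.5 FPKM. HOXB7 was at 20.9 and 18.0 FPKM, HOXB9 at 12.0 and 8.96, HOXB2 at 3.07 and 3.85, HOXB5 at 2.35 and 2.71 and HOXB6 at 1.70 and 2.32. The A, C and D clusters gave 1 of 11, 1 of 9 and 2 of 9, none above 2 FPKM. Of 15 factors of other organs 3 passed, GATA3 at 4.88 and 5.12 FPKM, MITF at 4.27 and 3.59 FPKM among them, and HNF4A, CDX2 and SOX17 had 0 reads.

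Over all genes that the deposited table assigns to a transcription factor family, 819 of 1553 passed (52.7%), close to the share of protein-coding genes. Families differed. E2F factors, which time the cell cycle, passed in 10 of 11 cases, ZBTB factors in 35 of 44 and bZIP factors, which include AP-1 and NRF2, in 35 of 48. Homeobox genes passed in 47 of 193 (24.4%), T-box genes in 4 of 17 and POU genes in 1 of 16. The families with the smallest shares are known for patterning tissues in the embryo.

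Of 41 factors driven by signals 35 passed (85.4%, against 52.7% of all transcription factors). Within AP-1, FOSL1 led at 124 and 132 FPKM, followed by JUN (49.7 and 52.4), FOSL2 (40.4 and 40.9), JUND (35.4 and 40.3) and JUNB (36.8 and 38.2), and the immediate early gene FOS lay below 1 FPKM at 0.924 and 0.914. HMGA1, an architectural chromatin protein, was at 455 and 474 FPKM and MYC at 58.7 and 59.3, while MYCN and MYCL stayed below 0.05. ATF4, the effector of amino acid and unfolded protein stress, was at 171 and 152 FPKM, HIF1A, the hypoxia factor, at 167 and 151, and NFE2L2, which encodes NRF2, at 39.4 and 37.2. TEAD1 (25.5 and 24.4 FPKM) and its coactivators WWTR1 (16.7 and 17.3) and YAP1 (9.72 and 9.98) were present. HMGA2, a relative of HMGA1 usually limited to the embryo, was at 30.3 and 29.03 FPKM.

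Of 14 genes around RB, cyclins and CDK inhibitors 13 passed, as did 10 of 11 other genes often altered in squamous lung cancer. Cyclin D1, CCND1, was at 275 and 282 FPKM, and its partners CDK4 and CDK6 at 28.9 and 32.4 and at 8.29 and 8.59. The inhibitor CDKN1A was at 41.7 and 43.3 FPKM and CDKN1B at 24.3 and 24.8, and RB1 at 13.2 and 12.1. CDKN2A (chr9:21967753-21995301, hg38), which encodes the CDK4 inhibitor p16, had 0 reads in both libraries, as had its neighbours CDKN2B, CDKN2B-AS1 and DMRTA1. MTAP, the next of these genes towards lower coordinates at chr9:21802543-21937651, stood at 4.29 and 4.64 FPKM from 1048 and 1192 reads. Genes farther out were chosen after their values were seen. Between MTAP and KLHL9 (14.4 and 13.7 FPKM) lay 6 interferon genes, of which 4 had 0 reads and IFNA1 (0.0693 and 0.462 FPKM) and IFNE (0.649 and 0.579) were below the threshold. On the other side, ELAVL2 was at 0.0815 and 0.244 FPKM and IZUMO3 had 0 reads before TUSC1 at 8.81 and 8.19. DNA copy number was not measured in these data.

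Of 58 receptor tyrosine kinases, 23 passed (39.7%, against 53.1% of protein-coding genes), and a few dominated. AXL, a receptor of the TAM family activated by GAS6, was highest at 134 and 135 FPKM. EPHA2, an ephrin receptor, was at 95.8 and 99.8 FPKM, MET, the receptor of hepatocyte growth factor, at 48.4 and 48.7, and EGFR at 37.9 and 37.5. EPHB6 (16.6 and 18.6 FPKM), EPHB2 (12.4 and 11.9), DDR1, a collagen receptor (11.2 and 12.5), and EPHB4 (10.4 and 10.9) came next. The other ERBB receptors were far lower, ERBB2 at 2.67 and 2.49 FPKM, ERBB3 at 0.463 and 0.435 and ERBB4 at 0.0414 and 0.0262. FGFR1, often amplified in squamous lung cancer, was at 7.32 and 7.44 FPKM, FGFR4 at 1.43 and 1.52 and FGFR2 at 0 and 0.00751. None of the 5 VEGF and TIE receptors passed, the highest being KDR at 0.137 and 0.0607, and KIT and FLT3 had 0 reads.

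**Figure D4:**
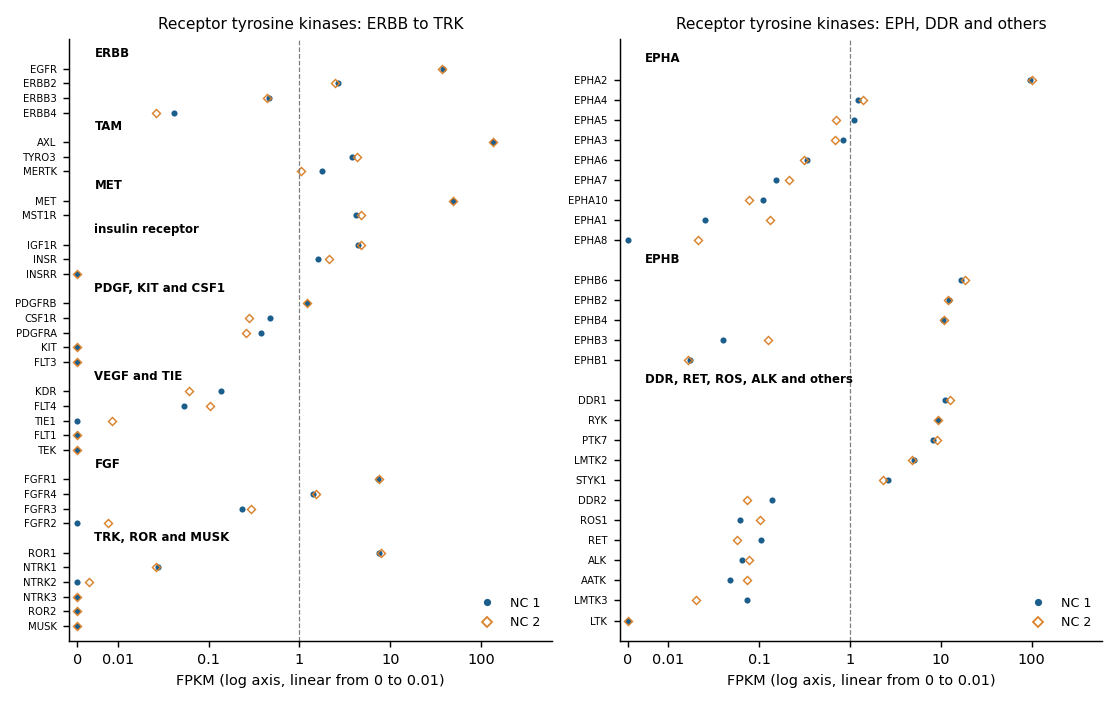
FPKM of 58 receptor tyrosine kinases (x axis, logarithmic above 0.01) by family, in NC library 1 (filled circles) and NC library 2 (open diamonds); the dashed line is 1 FPKM. AXL, EPHA2, MET and EGFR lie between 37.5 and 135 FPKM and the VEGF and TIE receptors all lie below 0.14 FPKM.

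Integrins and adhesion receptors were a second group at high level. ITGB1, the common beta chain, was at 227 and 222 FPKM, and its partners ITGA3 (165 and 169), ITGA2 (108 and 104), ITGAV (78.9 and 76.5) and ITGA5 (40.4 and 41.0) bind laminin, collagen and fibronectin. ITGB5 stood at 41.2 and 44.7 FPKM. The epithelial wound integrin ITGB6 was at 0.204 and 0.316, and the leukocyte chains ITGAL, ITGAM and ITGB2 stayed below 0.75. In all, 13 of 26 integrin chains passed (50%, near the 53.1% of protein-coding genes).

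Of 65 cytokine receptors, 37 passed (56.9%, near the 53.1% of protein-coding genes). In the interleukin-6 family, the shared chain IL6ST was at 80.4 and 75.3 FPKM, OSMR at 47.9 and 44.8 and LIFR at 10.4 and 9.58. IL13RA2, a decoy receptor of interleukin-13, was at 71.7 and 68.4 FPKM and IL13RA1 at 39.0 and 39.7. Receptors of the tumour necrosis factor family passed in 13 of 15 cases, led by TNFRSF12A, the TWEAK receptor (76.0 and 83.0 FPKM), the TRAIL death receptor TNFRSF10B (49.2 and 49.4) and TNFRSF1A (41.5 and 43.6). The interferon receptor chains IFNGR1 (29.1 and 27.1 FPKM), IFNAR1 (26.6 and 25.6) and IFNGR2 (25.3 and 23.5) were present. IFNAR2, the other chain of the type I interferon receptor, was at 0.584 and 0.592. Whether overlapping gene models lowered this value was not tested. Chains typical of lymphoid and myeloid cells were absent: IL2RA, IL2RB, IL21R and CSF2RB had 0 reads. Among Toll-like receptors TLR2 was at 7.99 and 8.11 FPKM and TLR6 at 7.53 and 6.89, and TLR7, TLR8 and TLR9 had 0 reads.

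Receptors of the TGF-beta, Notch and WNT pathways passed in 21 of 31 cases (67.7%, against 53.1% of protein-coding genes). TGFBR2 was at 60.5 and 62.4 FPKM and TGFBR1 at 13.2 and 11.4, NOTCH2 at 31.1 and 30.7, and the WNT coreceptor LRP5 at 75.4 and 78.2, with FZD7 (23.7 and 21.8) and FZD6 (19.8 and 17.8) the highest Frizzleds. Of 48 nuclear receptors 22 passed (45.8%, against the same 53.1%). NR1H2, the oxysterol receptor LXR beta, was at 24.9 and 23.3 FPKM, NR2F6 at 23.2 and 23.1, NR0B1 at 19.6 and 17.9 and the glucocorticoid receptor NR3C1 at 18.6 and 17.1. NR0B1, known as DAX1, is a corepressor of steroid-producing tissues. The estrogen and progesterone receptors ESR1, ESR2 and PGR all stayed below 0.22 FPKM.

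Of 78 G protein-coupled receptors 29 passed (37.2%, against 53.1% of protein-coding genes). The roles ranged from 1 of 22 chemokine receptors to 12 of 18 adrenergic, muscarinic, adhesion and orphan receptors. Only the scavenger receptor ACKR3 passed among 22 chemokine receptors, at 4.85 and 6.08 FPKM, and 13 had 0 reads, CXCR1, CXCR2 and CCR2 among them. Protease-activated receptors were present, F2RL1 at 27.3 and 25.4 FPKM, F2RL2 at 22.4 and 21.4 and F2R at 12.7 and 11.3. ADGRE5, an adhesion receptor also known as CD97, was highest at 36.4 and 37.7. The prostaglandin receptor PTGFR was at 12.5 and 12.5 FPKM and the sphingosine-1-phosphate receptor S1PR3 at 7.82 and 7.85.

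Among 291 secreted genes, 140 passed (48.1%, near the 53.1% of protein-coding genes). Chemokines that draw neutrophils stood out by level. CXCL5 was at 232 and 227 FPKM, CXCL8 (interleukin-8) at 102 and 103, CXCL1 at 43.4 and 40.9, CXCL2 at 15.7 and 16.4 and CXCL3 at 5.31 and 4.49. The promoters of CXCL5 and CXCL8 are printed above. CXCL12 was at 0.00985 and 0.0281 FPKM, and CXCL9, CXCL13 and CXCL14 had 0 reads. Of 19 CC chemokines 3 passed, CCL2 at 26.4 and 29.4, CCL20 at 5.97 and 5.64 and CCL28 at 4.19 and 4.52, and 14 had 0 reads.

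Among growth factors, EREG (epiregulin) led the ligands of EGFR at 97.5 and 94.8 FPKM, followed by AREG (33.3 and 29.1), TGFA (11.9 and 10.1), HBEGF (7.30 and 6.91) and BTC (6.46 and 5.68). CSF1, the macrophage growth factor, was at 116 and 121 FPKM, and MDK at 36.4 and 41.2. GDF15, a stress-induced member of the TGF-beta family, was at 101 and 116 FPKM, TGFB1 at 35.4 and 37.7 and TGFB2 at 28.4 and 26.5. Of 22 FGF genes 2 passed, FGF5 at 5.05 and 5.62 FPKM and FGF2 at 1.42 and 1.18, and of 28 WNT ligands and inhibitors 7 passed, led by DKK3 at 23.2 and 23.8.

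Of 43 interleukins, colony-stimulating factors and related cytokines, 11 passed. CSF2, which encodes GM-CSF, was at 36.3 and 41.7 FPKM, LIF at 25.5 and 25.9, IL32 at 23.4 and 23.4, the alarmin IL1A at 21.9 and 20.5 and IL18 at 8.27 and 9.55. IL6 was at 1.42 and 1.84 FPKM, TNF at 0.107 and 0.442, and IL10, IFNG, IL2 and CSF3 had 0 reads. The checkpoint ligands PDCD1LG2 (9.79 and 8.72 FPKM) and CD274, PD-L1 (8.14 and 7.25), were chosen after their values were seen. They lay below CD276 (28.9 and 28.9) and the poliovirus receptor PVR (29.5 and 31.3).

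Many secreted genes of the matrix and its remodelling passed, though the size of such a block depends on how many genes were listed. Of 42 matrix proteins 35 passed (83.3%, against 53.1% of protein-coding genes). LGALS1, galectin-1, was at 374 and 389 FPKM, LGALS3BP at 149 and 157 and the proteoglycan AGRN at 102 and 113, beside COL6A1 and LAMB3 given above. MMP2, which cuts collagen IV, was at 156 and 160 FPKM, together with its activator MMP14 at 63.4 and 65.7 and the inhibitors TIMP2 (112 and 114), TIMP1 (83.6 and 86.9) and TIMP3 (51.2 and 54.0). MMP1, MMP8, MMP9 and MMP10 had 0 reads. PLAU, the urokinase that activates plasminogen, was at 90.5 and 96.1 FPKM. Of 13 IGF-binding and CCN proteins 8 passed, IGFBP7 at 94.97 and 96.1, IGFBP4 at 82.2 and 84.0, IGFBP6 at 75.04 and 74.3, CYR61 at 67.9 and 68.4 and CTGF at 37.7 and 36.8. CYR61 and CTGF are targets of YAP in many cells.

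Ligands and receptors were then set side by side for 67 pairs. In 26 pairs both genes passed, in 22 the ligand only, in 10 the receptor only and in 9 neither. Pairs with both included EREG and EGFR, GAS6 (12.3 and 13.5 FPKM) and AXL, LIF and LIFR, TGFB1 and TGFBR2, PLAU and PLAUR (12.2 and 12.0), and SPP1 (89.4 and 81.6) and CD44 (47.4 and 47.3). Ligands without their receptor included CXCL8 and CXCL1, whose receptors CXCR1 and CXCR2 had 0 reads, CCL2, CSF1 (CSF1R at 0.476 and 0.276 FPKM), CSF2 (CSF2RA at 0 and 0.104), KITLG (23.6 and 21.4, KIT at 0 reads) and VEGFA (11.9 and 11.9). Receptors without their ligand included MET (HGF at 0.165 and 0.0638 FPKM), OSMR (OSM at 0 reads), TNFRSF1A and IGF1R (4.40 and 4.80, with IGF1 at 0 reads). Most of these unpaired ligands act on leukocytes or vessels in the body. Several genes belong to more than 1 pair, so the pairs are not independent.

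**Figure D5:**
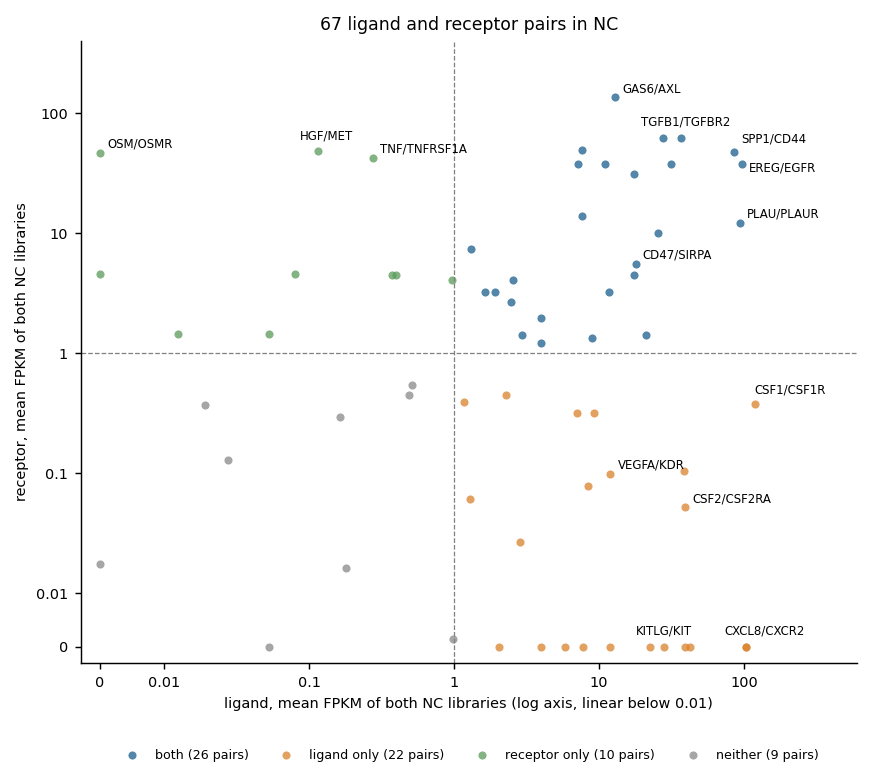
Mean FPKM of the ligand (x axis) and of the receptor (y axis) in both NC libraries for 67 pairs, both axes logarithmic above 0.01; dashed lines mark 1 FPKM and colours give which partner reached it in both libraries. The 26 pairs with both partners include GAS6 with AXL and EREG with EGFR, and 22 pairs with the ligand only include CXCL8 and CSF1.

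Of 35 cancer-testis genes, normally limited to the germ line, 12 passed. CTAG2 was at 98.2 and 98.1 FPKM, MAGEA6 at 67.4 and 67.4, MAGEA3 at 46.6 and 50.2 and MAGEA1 at 20.96 and 19.5, and PAGE1, SSX2 and DAZL had 0 reads. MAGEA3 and MAGEA6 are near-identical copies, and how reads that fit both were assigned is not given, so their split is uncertain.

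Genes that do not code for protein gave 1200 of the 11789. Long non-coding RNA genes passed in 563 of 14994 cases (3.75%) and pseudogenes in 483 of 15224 (3.17%). Of the small RNA genes 100 of 7074 passed, and 85 of those 100 rested on fewer than 10 reads in a library, since for a gene of 100 bases 1 FPKM corresponds to 1.67 and 1.76 reads. In all, 159 of the 11789 genes rested on so few reads, with a median length of 116 bases, and 1 of them codes for protein. Small RNA levels are therefore not interpreted.

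The 10 highest non-coding genes were mitochondrial RNAs and pseudogenes. MT-RNR2, the large mitochondrial ribosomal RNA, was at 7014 and 6610.4 FPKM and MT-RNR1, the small one, at 687 and 652. The tRNA genes MT-TC (2065 and 1984 FPKM), MT-TP (708 and 611), MT-TN and MT-TL1 followed. The other 4, all pseudogenes, completed the list: MTATP6P1 (582 and 613 FPKM), RPS28P7 (550 and 571), EEF1A1P5 (407 and 384) and RPL9P9 (334 and 339). The parent genes, chosen after their values were seen, were lower for RPS28 (30.4 and 31.1 FPKM) and RPL9 (82.9 and 80.6). The deposited gene length is the summed length of all exons of a gene, 2119 bases for RPS28 against 210 for its pseudogene and 5022 against 717 for RPL9, which lowers the FPKM of a parent with many isoforms. With the longest transcript as length, RPL9 came to 174 FPKM on average and RPL9P9 to 379, and RPS28 to 49.2, still below RPS28P7. How reads that fit a parent and its copy were assigned is not given in the sources used here, so these pseudogene levels are uncertain.

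Among the long non-coding RNAs with a name other than a clone's, LINC00942 was highest of the lincRNA class at 97.9 and 92.0 FPKM and AFAP1-AS1 of the antisense class at 26.3 and 26.7. SNHG5, a host of small nucleolar RNAs (44.1 and 46.2 FPKM), led the processed transcripts and TUG1 (12.6 and 12.4) the bidirectional promoter class. The nuclear RNAs MALAT1 (10.9 and 11.3 FPKM) and NEAT1 (5.58 and 5.47) and NORAD (93.3 and 86.0) were chosen after their values were seen. So were RN7SK, RMRP, RPPH1 and TERC, abundant or essential short RNAs in most cells, which had 0 reads in both libraries. RN7SL1, looked up with them, also had 0 reads, but RN7SL2 was at 29.7 and 30.6 FPKM from 149 and 161 reads. Antisense genes cannot be told apart from their partners where reads were counted without strand, and whether strand was used is not given. MIR205HG, the host of a microRNA of basal epithelium, was chosen in the same way and had 0 reads.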

How the data were processed

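Values for each gene were deposited by the authors as FPKM in 1 table of the whole series, and the NC columns were used. Per the submitters' processing notes, reads were placed on hg38. Which aligner, counter and annotation served is not given in the sources used here. How reads that fall in overlapping genes were counted is likewise not given, so low values of such genes are uncertain. Deposited gene starts, ends and lengths equalled those of GENCODE release 29, with length as the summed length of all exons, for 100% of genes. Read numbers were recovered by dividing FPKM times length by what 1 read is worth, and 100% of values came out whole (tolerance 0.001 reads). This step and the counts were tested on simulated data. Python 3.11.15, numpy 2.4.6 and pandas 2.3.3 were used.

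No test was run, since 1 group of 2 libraries was described. The members, the 18 gene lists (958 of 959 symbols matched), the 67 pairs and the rules were chosen with earlier results of these data known. Named were the 25 highest protein-coding and 10 highest non-coding genes, the highest gene of a biotype, all squamous genes, the 5 highest of each role in the other lists and members below the threshold that define a role, genes nearest the threshold and those that differed most between the libraries. Some of these are not reported here, clone names among them. Partners in the pairs, EPCAM, COL1A1, IL6, CDK6, RB1 and genes said to be so were chosen after their values were seen. Promoters came from RefSeq, and the first listed start of a gene was used. Alternatives were other thresholds, 1 library alone, TPM, a read minimum, another gene length and ranks by reads.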

Additional observations from a re-analysis of the deposited data

How the results depend on the processing

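No paired analysis was possible because a single group was described and no result came from a test. At 5 FPKM in place of 1, 6941 genes passed, 6647 of them protein-coding, 40 lincRNAs, 23 antisense genes and 132 processed pseudogenes, with 277 list members and 13 pairs; at 0.5 FPKM, lincRNAs came to 410 and antisense genes to 438. After rescaling to TPM, with a cutoff of 1 TPM, lincRNAs came to 583, antisense genes to 632 and processed pseudogenes to 558. The FPKM of the libraries summed to 288612 and 286840, below the sum that TPM sets. A cutoff of 1 TPM was therefore lower than 0.5 FPKM, and 14667 genes passed it against 13388 at 0.5 FPKM. The TPM counts thus reflect a lower threshold. In the other alternatives the counts of all genes, of these biotypes, of all list members and of pairs stayed within 1.5 times. Of 108 counts of single lists in alternatives other than 0.5 and 5 FPKM, 104 did. The exceptions were HOX genes, from 11 to 18 under TPM, and markers of other cell types. The latter went from 1 to 2 by the mean of both libraries and without NC library 1 and to 3 under TPM. Leaving out either library gave 12357 to 12394 genes, 10739 to 10748 protein-coding genes, 309 to 317 lincRNAs, 299 to 300 antisense genes, 372 to 378 processed pseudogenes, 437 to 438 list members and 26 to 27 pairs. The 10 and 100 most abundant genes took 25.5% and 41.8% of the summed FPKM, 8.37% and 21.9% among nuclear protein-coding genes, and 18.4% and 36.7% with the longest transcript as gene length. Of the 25 nuclear protein-coding genes highest by FPKM, 14 remained by reads. The median absolute log2 ratio of the libraries was 0.0999 and 0.0677 at 10 FPKM or more. The read minimum and the transcript length were added after seeing the data. Below about 10 reads, counting error limits every level.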

Other observations

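The redox genes among the most abundant ones led to a look at genes known as targets of NRF2, the factor of the oxidative stress response. These 27 genes were chosen after the values of FTL, NQO1 and other redox genes were seen, so their count supports nothing beyond a description. Of the 27, 25 were at 1 FPKM or more in both libraries (92.6%, against 53.1% of protein-coding genes), 9 averaged 100 FPKM or more, and the median was 69.8 FPKM. NQO1, a quinone reductase, was at 368 and 361 FPKM, thioredoxin (TXN) at 363 and 367 and PRDX1, a peroxidase, at 262 and 267. The pentose phosphate enzymes PGD (171 and 173 FPKM), TALDO1 (144 and 156) and TKT (84.4 and 84.8) were among them. The aldo-keto reductases AKR1C1, AKR1C2 and AKR1C3 were at 113 and 101, 68.3 and 71.3, and 83.0 and 75.8 FPKM. These 3 genes are close in sequence, so their split is uncertain. The cystine carrier SLC7A11 was at 86.6 and 82.9 FPKM. Other members passed at far lower levels, among them SRXN1 (4.32 and 4.81 FPKM), PIR (9.67 and 11.2) and HMOX1 (11.3 and 10.5). GPX2 (0.0399 and 0.0380 FPKM) and ABCC2 (0.275 and 0.240) were the members below the threshold.

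TRBC2, a constant segment of the T cell receptor beta chain, was at 61.0 and 68.4 FPKM from 773 and 910 reads. CD3E, which T cells express with that receptor, had 0 reads, and PTPRC, found on all leukocytes, was at 0.0392 and 0.0435 FPKM. KRT80, a keratin outside the lists, was at 49.0 and 50.3 FPKM.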
